A study of Drosophila melanogaster with 2 samples.

Results

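Of the 5944 reproducible binding summits of CG8216 on the fruit fly genome, 210 (3.53%, exact 95% interval 3.08 to 4.03%) lay at the promoter of a non-coding gene and of no protein-coding gene. A summit, the base of highest signal in a peak, was placed in this set when it lay within 500 bp of an annotated start of a gene that makes no protein and more than 500 bp from every protein-coding start. Transfer RNA genes and transposable elements were not counted as non-coding genes. Of the other summits, 1504 lay at protein-coding promoters, 4221 lay outside promoters and 9 lay at transfer RNA promoters only. A further 76 summits that lay near both kinds of start were counted among the protein-coding promoters.

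Non-coding genes make RNAs that act without being translated. Long non-coding RNAs (lncRNAs) are capped and spliced like messenger RNAs, and antisense RNAs are transcribed from the strand opposite another gene. MicroRNAs are cut from hairpins in longer primary transcripts and silence messenger RNAs through the seed near their 5′ end. Small nuclear and small nucleolar RNAs take part in transcription control, splicing and the chemical modification of other RNAs.

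The summits came from chromatin immunoprecipitation and sequencing (ChIP-seq) of whole prepupae, animals at the start of metamorphosis, of both sexes combined. They carried a transgene for CG8216, also named spab, with GFP at its C-terminal end, and an antibody against GFP was used. Both of the 2 biological replicates came from this 1 transgenic line, the labels give an age of 24 days, which is not a usual age for this stage, and chromatin was sonicated to 200 to 800 bp. With 1 group and 2 replicates no test between conditions could be made, so shares are given with exact binomial intervals that cover counting error only. Whole animals mix many cell types, so weak binding in many cells and strong binding in few cannot be told apart, and a list of peaks holds no marker by which the tissue could be checked.

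The 200 bases around 5 summits on dm6 are shown first, so that sites with and without the words described further on can be read side by side. They are the 4 strongest members and the strongest member at a microRNA hairpin, mir-276a, which ranked 23 in the set. Words are more frequent among these 5 than in the set as a whole. Capitals mark 3 words on either strand, namely CAGTGTA, the closely related word CAGTGCA, and also the word CACTGAG. The first of them appears as TACACTG where it lies on the reverse strand, and the last of them then appears as CTCAGTG.
lncRNA:CR31044 (chr3R:29214343-29214542, plus strand, no word): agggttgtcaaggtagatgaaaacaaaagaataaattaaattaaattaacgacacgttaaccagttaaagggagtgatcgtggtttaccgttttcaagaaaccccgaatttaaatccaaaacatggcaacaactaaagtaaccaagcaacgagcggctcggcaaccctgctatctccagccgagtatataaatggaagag
lncRNA:CR44619 (chrX:12752266-12752465, plus strand, CAGTGCA at 2 places): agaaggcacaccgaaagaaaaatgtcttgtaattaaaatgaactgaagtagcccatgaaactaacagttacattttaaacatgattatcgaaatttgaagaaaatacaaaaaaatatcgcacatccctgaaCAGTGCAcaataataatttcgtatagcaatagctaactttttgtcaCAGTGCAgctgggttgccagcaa
lncRNA:CR46102 (chr3R:25738076-25738275, plus strand, CAGTGTA): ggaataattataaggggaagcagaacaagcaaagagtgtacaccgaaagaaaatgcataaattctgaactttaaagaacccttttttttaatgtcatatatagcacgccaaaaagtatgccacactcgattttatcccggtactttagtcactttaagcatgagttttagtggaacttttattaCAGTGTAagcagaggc
lncRNA:CR44676 (chr3L:19560731-19560930, plus strand, 3 words): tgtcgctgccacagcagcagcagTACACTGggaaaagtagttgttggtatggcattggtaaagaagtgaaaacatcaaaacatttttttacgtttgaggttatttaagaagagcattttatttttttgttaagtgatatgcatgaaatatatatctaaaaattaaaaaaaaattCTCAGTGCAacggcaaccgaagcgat
mir-276a (chr3L:10365011-10365210, plus strand, no word): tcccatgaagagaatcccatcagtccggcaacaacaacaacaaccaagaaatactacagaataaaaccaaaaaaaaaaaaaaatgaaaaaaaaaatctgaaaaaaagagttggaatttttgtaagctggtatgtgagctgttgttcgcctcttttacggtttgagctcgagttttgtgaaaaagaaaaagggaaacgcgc

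The summit upstream of lncRNA:CR31044, which holds mir-279 and mir-996, had none of the 3 words. The summit at lncRNA:CR44619 had CAGTGCA at 2 places on the same strand. In the window of lncRNA:CR44676, CACTGAG on the reverse strand and CAGTGCA overlap by 5 bases, since both contain CAGTG or its complement, so these are not independent matches.

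Among the microRNA genes of the set, 7 with their own hairpin, the start of their host transcript or both at a summit are shown by their mature sequences, so that shared seeds can be seen. Each is the mature product listed as transcript RA in the RefSeq annotation of dm6, read from the genome and written with T. Only this product is shown for each gene, whichever arm of the hairpin it comes from. The seed of any other product of these genes was not compared. Capitals mark the seed, bases 2 to 8.
mir-279 (chr3R:29215651-29215672, plus strand): tGACTAGAtccacactcattaa
mir-996 (chr3R:29217244-29217265, plus strand): tGACTAGAtttcatgctcgtct
mir-276a (chr3L:10365243-10365265, plus strand): cAGCGAGGtatagagttcctacg
mir-ban (chr3L:642259-642281, plus strand): tGAGATCAttttgaaagctgatt
mir-1 (chr2L:20487496-20487517, plus strand): tGGAATGTaaagaagtatggag
mir-275 (chr2L:7425853-7425875, plus strand): tCAGGTACctgaagtagcgcgcg
mir-282 (chr3L:3251038-3251061, plus strand): tAGCCTCTactaggctttgtctgt

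These 7 are a chosen part of the 17 microRNA genes reached in such ways. Among the 7 shown, mir-279 and mir-996 had the same seed, and the other 5 seeds each occurred once. Both genes of the shared seed lie in lncRNA:CR31044, the gene with the strongest summit of the whole set. Seeds of the reached genes not shown, such as mir-281-1 and mir-281-2 in asRNA:CR46194, were not compared.

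Peak signal is the value deposited by the authors for each peak, in the peak caller's own units. Its scaling is not stated, so levels are not compared between the 3 lists used here (reproducible, replicate 1 and replicate 2) as amounts of binding. A summit's value in a replicate is that of the highest summit within 100 bp in that replicate's list. The median signal of the 210 summits was 290 in the reproducible list (quartiles 191 and 525, range 150 to 2648). In replicate 1 the median was 135 over 206 summits found there, and in replicate 2 it was 156 over 207. A summit was present in both replicates for 203 of the 210 (96.7%, 93.3 to 98.6%), in 1 replicate for 7, and in neither for 0. The reproducible list keeps peaks that recur between the replicates, so this high share was largely set by that selection. Over the whole reproducible list, a summit was present in both replicates for 5621 of 5944.

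lncRNA:CR31044 (FBgn0051044, chr3R:29214562-29219667), the host of mir-279 and mir-996, had the highest signal, with 1297 in replicate 1, 1355 in replicate 2 and 2648 in the reproducible list, where it ranked 16. Its summit lay 119 bp upstream of the start and 5729 bp from the nearest protein-coding start. miR-279 is known in flies for keeping carbon dioxide sensing neurons out of the maxillary palp. A second summit of the set, with signal 308 (161 and 160), lay 325 bp upstream of the mir-279 hairpin itself, so that a strong and a weaker site stood in the same locus.

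The second strongest summit, at lncRNA:CR44619 (FBgn0265830), had signal 2203 (1113 in replicate 1, 1093 in replicate 2) and lay 499 bp downstream of the start, just inside the limit of 500 bp. A still stronger summit of 3264, the 6th of the whole reproducible list, lay 517 bp from a start of the same gene and was therefore not a member. The neighbouring lncRNA:Vinr, a gene named from virus-infected flies, had a weak summit of 158 (58.0 and 117). The other members nearest the limit were lncRNA:CR44713 at 498 bp with 265, lncRNA:CR44309 at 497 bp with 373, lncRNA:CR44681 at 495 bp with 600, lncRNA:CR46445 at 495 bp with 330, lncRNA:CR44420 at 492 bp with 352 and lncRNA:CR44409 at 491 bp with 1353. Their signals thus ran from below the median of the set to among its highest. Just outside it, the summit at lncRNA:CR32660 lay at 503 bp with 206.

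lncRNA:CR46102 (FBgn0267771) had signal 1816 (914 in replicate 1, 925 in replicate 2) and lies in an intron of LpR2, a lipoprotein receptor gene, on the opposite strand. lncRNA:CR44676 (FBgn0265887) followed with 1500 (790 and 701), 8411 bp from the nearest protein-coding start. These 2 summits lay downstream of their starts, by 149 and 359 bp. lncRNA:CR43626 (FBgn0263617), the host of mir-282, had 1483 (789 and 693), and its summit fell in an exon of CG43389.

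Across the 20 strongest members, signals ran from 933 to 2648, and the replicates differed by at most 1.59-fold, in lncRNA:CR44222. Of these 20 summits 10 lay in an intron of a protein-coding gene, 9 lay outside protein-coding genes and 1 lay in an exon. In 9 of the 10 intronic cases the non-coding gene is on the strand opposite its host, a count for which no background was taken. Among their hosts and neighbours, osa encodes a subunit of the Brahma chromatin remodelling complex, kis a chromatin remodeller, Dif an immune factor of the NF-κB family, fng a glycosyltransferase that modifies Notch, vri a repressor of the circadian clock and mbl a splicing factor.

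The values for these were as follows. At osa, lncRNA:CR46036 had 1288 (625 in replicate 1, 672 in replicate 2) and lncRNA:CR46035 had 977 (469 and 519) with a second summit of 665. lncRNA:CR44409 in Dif had 1353 (674 and 676), and lncRNA:CR45243, 1440 bp from the start of fng, had 1336 (669 and 689). osa was the host of the most intronic members, with 3 summits at 2 genes, and Eip63E, an ecdysone-induced cyclin-dependent kinase gene, and CG14434 had 2 each. lncRNA:CR44742 near vri had 1023 (558 and 470). lncRNA:CR45997 in mbl had 943 (522 and 430), and lncRNA:CR44222 in kis had 936 (363 and 577). kis was the least even of these between the replicates, yet both of its values were above the median of the set.

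The other 8 of the 20 were spread over several kinds of neighbour. Outside protein-coding genes, lncRNA:CR44339, 4203 bp from the Polycomb group gene Psc, had 1458 (723 in replicate 1, 728 in replicate 2). lncRNA:CR45595 had 1425 (704 and 706), lncRNA:CR45668, 659 bp from the actin gene Act5C, had 1172 (585 and 558), and lncRNA:CR45541 near the hexokinase gene Hex-A had 945 (515 and 440). asRNA:CR46145 in the tyrosine kinase gene FER had 1160 (598 and 564), with its summit exactly on the annotated start, the only such case in the set. lncRNA:CR44867 in beat-Ib had 1010 (453 and 565), lncRNA:CR45325 had 984 (479 and 498) and asRNA:CR45868 in bip1 had 933 (419 and 507). All 20 were thus strong in both replicates, with no value under 363, in a list that keeps peaks recurring between them.

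The 5 weakest members lay just above the lowest signal in the list, 149.5. They were lncRNA:CR44977 at 153.0, lncRNA:CR43949 at 152.8, lncRNA:CR44544 at 150.7, asRNA:CR46484 at 150.4 and lncRNA:CR32111 at 150.3. lncRNA:CR44544 also had a stronger summit of 292.

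**Figure D1:**
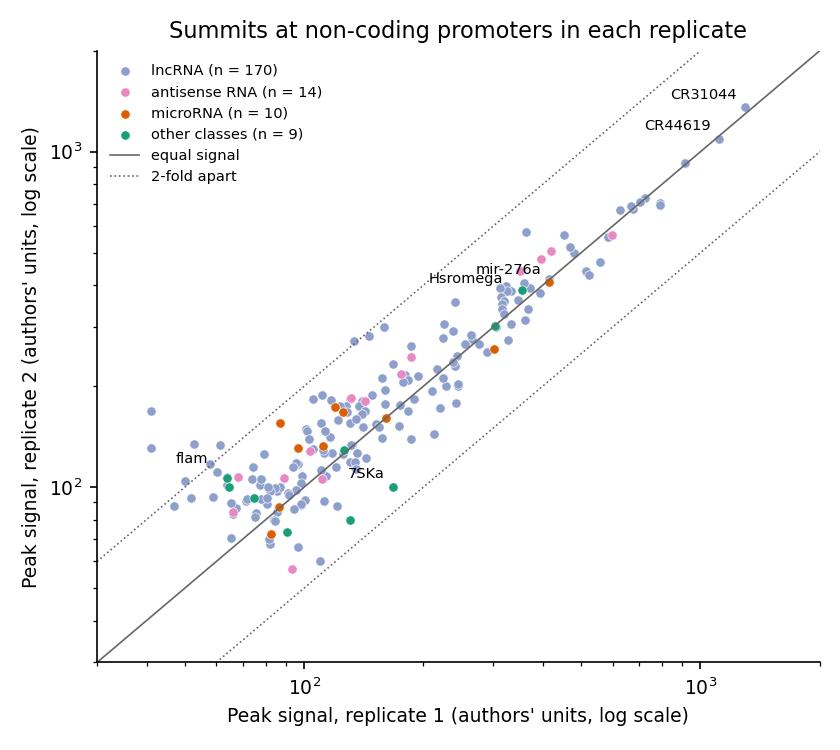
Peak signal of each summit of the set in replicate 1 (x axis) and replicate 2 (y axis), in the authors' units on log scales, for the 203 summits found in both; colours give the class of the nearest non-coding gene, the solid line marks equal signal and the dotted lines a 2-fold difference. The points follow the line from lncRNA:CR31044 at 1297 and 1355 down to weak sites such as lncRNA:flam at 60.2 and 111, and the 7 points beyond a 2-fold difference all lie on the replicate 2 side.

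Over the 203 summits found in both replicates, Spearman's rho was 0.894 and Pearson's r of the log2 signals was 0.922. These values describe sites that share the same 2 libraries. They were partly set in advance, since the reproducible list keeps peaks that recur between the replicates. On the log2 scale, replicate 1 over replicate 2 came to a median of -0.15 with an SD of 0.39, and 140 of the 203 were lower in replicate 1. Over the whole reproducible list the median was -0.16. The 7 summits that differed by more than 2-fold were all lower in replicate 1, among them lncRNA:CR46006 with 41.1 and 168 and lncRNA:CR44544 with 41.0 and 131. Of the 7 summits matched within 100 bp in 1 replicate only, the strongest was asRNA:CR45999 (481, with 278 in replicate 2). lncRNA:CR44605 (91.5), lncRNA:CR46095 (87.0) and RNaseMRP:RNA (109) were also matched in replicate 2 only. lncRNA:CR46445 (181), lncRNA:CR44677 (176) and lncRNA:CR43785 (97.2) were matched in replicate 1 only. With a match within 200 bp, 207 of the 210 were found in both replicates, so a missing match is not an absence of binding.

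By gene class, lncRNAs held most of the set. The nearest start belonged to a lncRNA for 175 of the 210 summits, with a median signal of 296, to an antisense RNA for 15 (median 332), to a microRNA for 10 (268) and to a pseudogene for 4 (261). The remaining 6 were 2 small nucleolar RNAs, 1 small nuclear RNA, 1 stable intronic RNA, and the genes RNaseMRP:RNA and sbRNA:1. In all, 197 of the 3448 non-coding genes (5.71%, 4.96 to 6.54%) had a start within 500 bp of a summit of the set. The background for these counts is the share with any reproducible summit within 500 bp, which was 7.66% of all non-coding genes and 10.9% of protein-coding genes.

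The share of genes reached differed widely by class. Among genes with a start more than 500 bp from every protein-coding start, the set reached 161 of 1694 lncRNA genes (9.50%, 8.15 to 11.0%), 10 of 231 microRNA genes (4.33%, 2.10 to 7.82%) and 12 of 328 antisense RNA genes (3.66%, 1.90 to 6.30%). Over all classes the share was 192 of 2888 (6.65%, 5.77 to 7.62%). The interval of the lncRNA genes did not overlap those of the microRNA and antisense RNA genes. For antisense RNA this depended on the member rule, since with any reproducible summit counted over all genes of a class the share was 7.36% (5.23 to 9.997%) for antisense RNA and 10.3% (9.02 to 11.8%) for lncRNA genes, which overlap. It reached 2 of 240 small nucleolar RNA genes (0.833%), most of which lie inside introns of host genes and have no promoter of their own, and 3 of 224 pseudogenes (1.34%). Of the 99 ribosomal RNA genes it reached 0, which allows a share of up to 3.66% by the exact interval. Genes of 1 class can lie in clusters and share a summit, so these intervals may be too narrow.

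**Figure D2:**
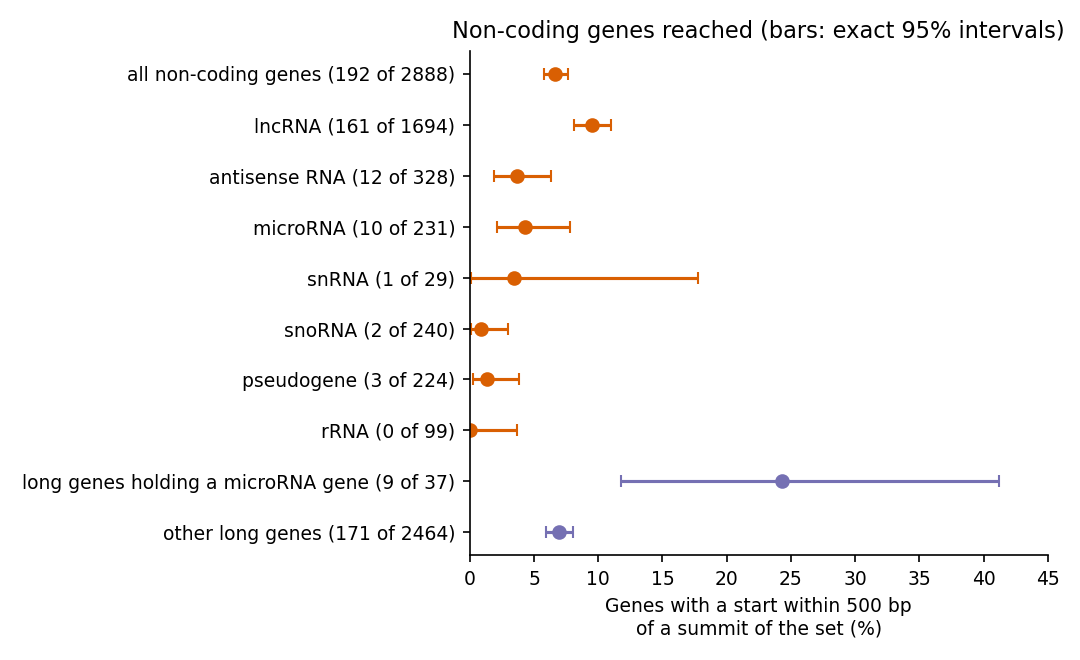
Share of genes with a start within 500 bp of a summit of the set (x axis, percent) by class, with the exact 95% interval as the bar; the upper 8 rows count only genes with a start away from protein-coding starts, and the lower 2 rows divide all lncRNA, antisense and unclassed non-coding genes by whether they hold a microRNA gene on their strand. The share was 9.50% for lncRNA genes, 0.833% for small nucleolar RNA genes and 24.3% for long genes that hold a microRNA gene.

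Long non-coding genes that hold a microRNA gene on the same strand, and so may be its primary transcript, were reached in 9 of 37 cases (24.3%, 11.8 to 41.2%), against 171 of 2464 other long non-coding genes (6.94%, 5.97 to 8.02%). The division was made after the values had been seen and was given no test, so intervals that do not overlap are no support here. The hosts are not all independent, since asRNA:CR17025 and asRNA:CR46354 both hold mir-252. The number of starts per gene was not taken into account. Through their own hairpin or the start of such a host, 17 of 260 microRNA genes (6.54%) were reached, 4 of them both ways.

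The 9 hosts carry several microRNAs with well-studied roles. lncRNA:CR43650, the host of mir-8, a regulator of body growth, had a summit of 412 (224 in replicate 1, 211 in replicate 2) 66 bp from a start. lncRNA:CR45361, the host of the muscle microRNA mir-1, had 200 (98.1 and 103). lncRNA:CR46006, the host of mir-276a, had summits of 366 and 197, the second of them uneven between the replicates (41.1 and 168). The levels of these 3 genes ran from below to above the median of the set, well under that of lncRNA:CR31044.

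lncRNA:CR43334, the host of mir-ban, had a summit of 156 (71.3 and 91.2). mir-ban, or bantam, promotes growth and blocks cell death. asRNA:CR46194, the host of mir-281-1 and mir-281-2, had 223 (103 and 128), and lncRNA:CR43857, the host of mir-275, had 187 (98.4 and 88.9). These 3 lay below the median of the set in the reproducible list.

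Annotated starts of microRNA genes are ends of hairpins, not starts of transcription, so a summit near one is near the hairpin. The strongest of the 10 such summits was 834 at mir-276a (416 in replicate 1, 408 in replicate 2), 117 bp upstream of the hairpin and 47707 bp from the nearest protein-coding start. mir-9377, in an intron of Tis11, followed with 573 (301 and 258). The others ran from 308 at mir-279 through 290 at mir-2491, 287 at mir-4962, 249 at mir-275, 245 at mir-92b, 226 at mir-ban and 176 at mir-274 to 155 at mir-9385. All 10 were found in both replicates, and 2 of the 10 stood above the third quartile of the set, 525.

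lncRNA:let7C, the primary transcript of mir-100, mir-let7 and mir-125, which rises at the onset of metamorphosis in flies, was not reached. Its nearest summit lay 553 bp from the start, 53 bp beyond the limit, and had signal 1886 (969 in replicate 1, 910 in replicate 2). The gene held 7 reproducible summits in all. Within a limit of 1000 bp that nearest summit would count.

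Of 10 lncRNA genes with a described function, 2 were reached, beside 5.71% of all non-coding genes. In this list and in the next 2, each of 10 genes or fewer, the counts are too small to be read as a share above or below that. lncRNA:Hsromega (FBgn0001234, chr3R:21296127-21317836), the heat-inducible RNA that organises nuclear omega speckles, had a summit of 713 (333 in replicate 1, 385 in replicate 2) 225 bp downstream of its start, and lncRNA:Vinr had the weak summit given above. Besides lncRNA:let7C, the gene lncRNA:yar, beside yellow, missed by less than 1000 bp, with its nearest summit at 793 bp (285). The dosage compensation RNAs lncRNA:roX1 and lncRNA:roX2 had their nearest summits at 4504 and 18506 bp. The Hox region genes lncRNA:bxd and lncRNA:iab8, and also lncRNA:CRG and lncRNA:sphinx, had theirs at 28090, 12676, 4587 and 145160 bp.

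Genes for the RNAs of basic machinery gave 2 of 6. snRNA:7SKa, whose RNA holds the elongation factor P-TEFb inactive, had a summit of 254.5 (167 in replicate 1, 100 in replicate 2). RNaseMRP:RNA, which acts in ribosomal RNA processing, had 174, matched within 100 bp in replicate 2 only. snRNA:7SKb, both 7SL RNA genes and RNaseP:RNA were not reached, with the nearest summit at least 3940 bp away. Of 7 small nucleolar RNA host genes (Uhg1 to Uhg5, Uhg7 and Uhg8) 0 were reached, and the nearest summit to any of their starts was 1959 bp from Uhg3.

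The other members with names of their own were mostly weak. sisRNA:4, a stable intronic RNA inside deadpan, stood above them with 757 (355 in replicate 1, 387 in replicate 2). lncRNA:marge had 322 (186 and 139), lncRNA:TS16 had 186 (86.8 and 100.1), and sbRNA:1 had 169 (90.3 and 73.5). lncRNA:flam, the flamenco piRNA cluster that silences transposons in ovarian follicle cells, had 172 (60.2 and 111). It was added by itself after its value was seen, so its count of 1 gene in 1 says nothing.

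At the small nucleolar RNA genes the signals were 184 for snoRNA:Psi18S-176 and 159 for snoRNA:Or-CD13. Among pseudogenes, CR42490 had 2 summits of 604 and 274, CR43972 had 248 and CR43096 had 170. Apart from sisRNA:4, lncRNA:marge and CR42490 with its stronger summit, every gene of these 2 paragraphs was below the median of the set, 290.

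Antisense RNA genes accounted for 15 members, and 15 of all 503 such genes were reached (2.98%), beside 5.71% of all non-coding genes. With any reproducible summit counted, the shares were 7.36% of antisense RNA genes and 7.66% of all non-coding genes. In 10 of the 15 the summit lay inside a protein-coding gene on the other strand, in 4 it lay outside protein-coding genes, and in 1 the gene was on the same strand. The strongest after asRNA:CR46145 and asRNA:CR45868 were asRNA:CR43426 with 887 (395 in replicate 1, 480 in replicate 2) and asRNA:CR45908, in CG1943, with 790. asRNA:CR44429 in gce, a juvenile hormone receptor gene, had 429 (186 and 244).

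Relative to the start, 120 summits (57.1%, 50.2 to 63.9%) lay upstream, 89 downstream and 1 at the start. With a limit of 1000 bp the upstream share was 50.5% (44.8 to 56.2%), so upstream and downstream summits were then about equal in number. The median distance was 238 bp (quartiles 137.5 and 384), against 189 bp for protein-coding promoter summits. Both sets were cut at 500 bp by the rule that defined them, so these distances were partly set by that limit. Within 100 bp of the start lay 34 of 210 (16.2%, 11.5 to 21.9%), against 335 of 1504 protein-coding promoter summits (22.3%, 20.2 to 24.5%), and these intervals overlap. The fullest 100 bp bin was 200 to 100 bp upstream, with 33 summits, and the emptiest was the first 100 bp downstream, with 11.

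**Figure D3:**
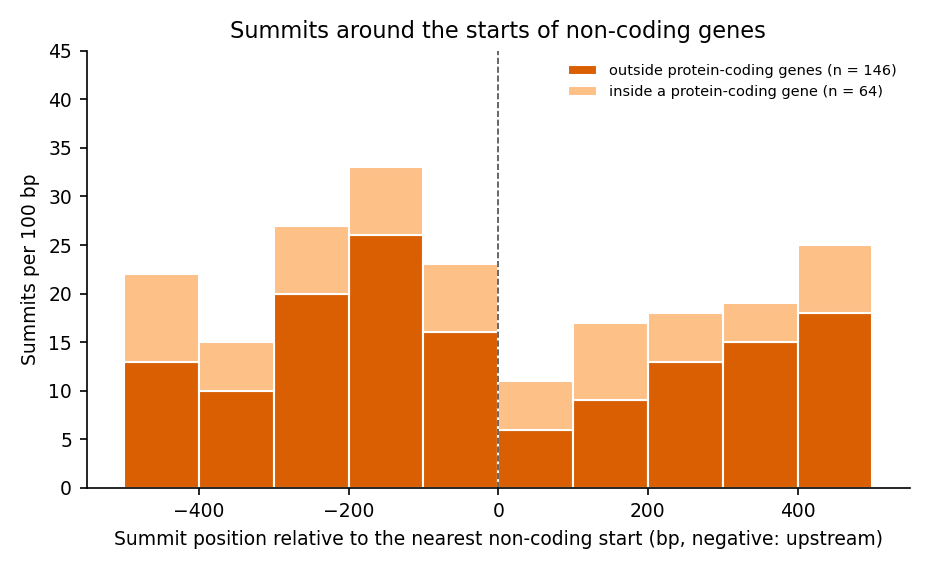
Number of summits of the set (y axis) per 100 bp of position relative to the nearest non-coding start (x axis, bp, negative is upstream along the gene); dark bars are summits outside protein-coding genes and light bars those inside one. The counts reach 33 between 200 and 100 bp upstream and fall to 11 in the 100 bp after the start.

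Summits were denser near non-coding starts than far from them, counting only bases more than 500 bp from protein-coding starts. Their number per Mb was 57.5 (39.9 to 80.4) within 100 bp, 98.0 (77.4 to 122) from 101 to 250 bp and 79.7 (64.7 to 97.1) from 251 to 500 bp. It fell to 67.2 (57.1 to 78.6) from 501 to 1000 bp and to 33.9 (32.7 to 35.0) beyond 5000 bp. Around protein-coding starts the first 2 of these values were 91.9 (82.3 to 102) and 130 (120 to 141). Both profiles had their highest value from 101 to 250 bp, but the decline with distance was slower around non-coding starts, where the density from 501 to 1000 bp was above the 44.7 (41.0 to 48.7) found around protein-coding starts with no overlap of the intervals. Over the whole window the set took 3.53% of summits in 1.95% of the 133880608 bases searched, a ratio of 1.81 (1.57 to 2.06).

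**Figure D4:**
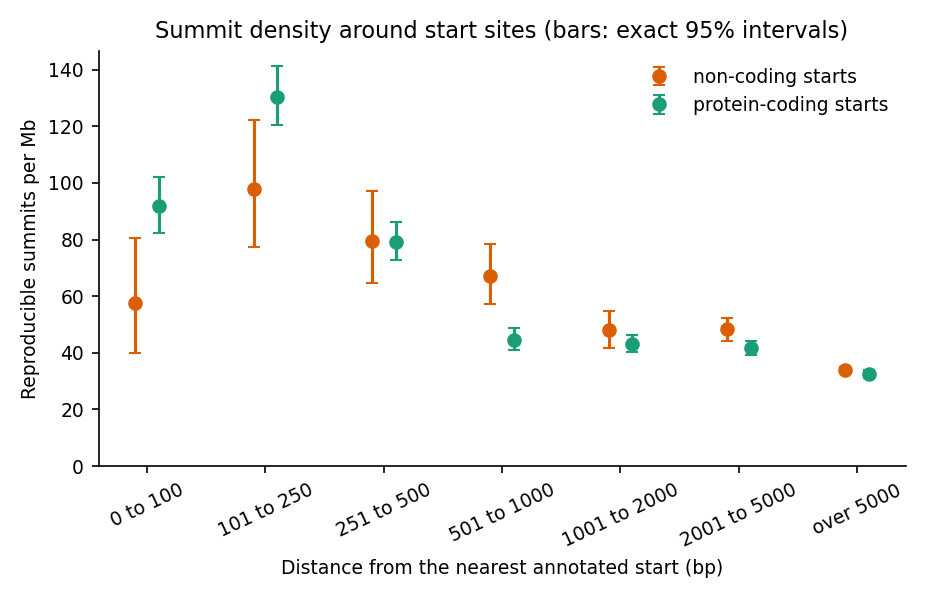
Reproducible summits per Mb (y axis) by distance from the nearest non-coding or protein-coding start (x axis, bp), with exact 95% Poisson intervals as bars; bases near protein-coding starts are left out of the non-coding series. The non-coding series rises from 57.5 within 100 bp to 98.0 at 101 to 250 bp and falls to 33.9 beyond 5000 bp, and the protein-coding series peaks at 130.

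The signals of members overlapped widely with those of other summits. Their median was 0.935 of that at protein-coding promoters (310) and 1.08 of that outside promoters (267). Within replicate 1 these ratios were 0.886 and 1.06, and within replicate 2 they were 0.900 and 1.07. The order of the 3 groups was the same in both replicates, but the medians are close beside the quartiles of each group, and summits of 1 experiment are not replicates, so no test was made. Members made up 50 of the 1189 strongest peaks (4.21%) and 45 of the 1189 weakest (3.78%), with overlapping intervals. Protein-coding promoters were 36.1% of those strongest and 21.4% of those weakest peaks. In the pooled relaxed list, 662 of the 24056 peaks below the reproducible ones met the same rule (2.75%, 2.55 to 2.97%).

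**Figure D5:**
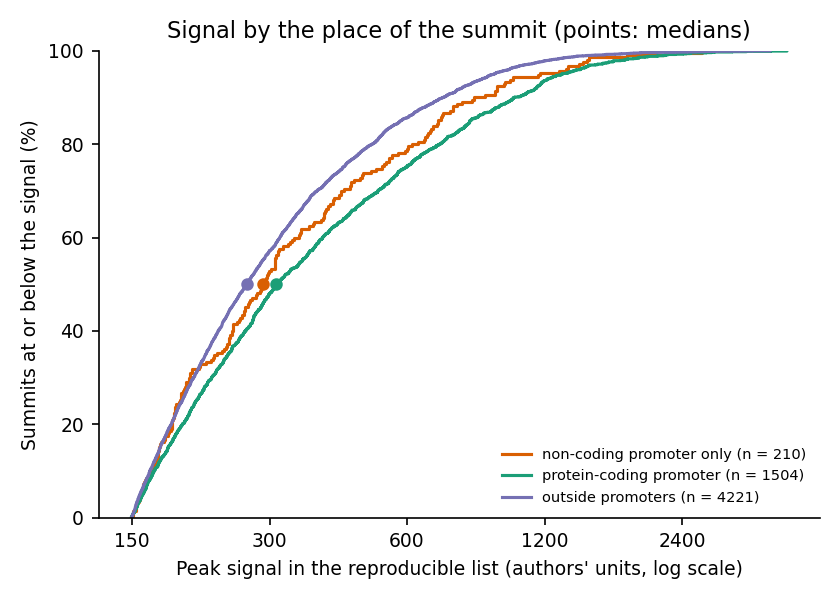
Cumulative share of summits (y axis, percent) at or below each peak signal (x axis, authors' units, log scale) for the 210 summits of the set, 1504 protein-coding promoter summits and 4221 summits outside promoters; points mark the medians of 290, 310 and 267. The curve of the set runs between the other two over most of its length.

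The member rule keeps only summits more than 500 bp from a protein-coding start, so distance from such starts is partly set by it. The median distance to the nearest protein-coding start was 3340 bp (quartiles 1613 and 7565), with 188 beyond 1000 bp and 71 beyond 5000 bp. Summits outside promoters, held to the same limit, had a larger median of 4394 bp (quartiles 1749 and 9751). Of the 210, 146 (69.5%, 62.8 to 75.7%) lay outside protein-coding genes, 61 (29.0%, 23.0 to 35.7%) in an intron and 3 in an exon. The starts of all non-coding genes away from protein-coding starts were divided 61.2%, 29.1% and 9.71% in the same way. The exon share of the members was 1.43% (0.296 to 4.12%), with an interval below that of the starts (8.67 to 10.8%). Members were placed by their summit and starts by the start base, so these shares compare unlike positions. Summits outside promoters had 66.7% in introns and 2.01% in exons, so the exon share of the members was close to theirs. Of the 61 intronic members, 44 (72.1%, 59.2 to 82.9%) had the non-coding gene on the strand opposite its host, 16 on the same strand, and 1 had hosts on both. The strand of all intronic non-coding genes was not counted, so this share has no background and cannot be read as a preference of binding.

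Members had another reproducible summit within 500 bp in 39 of 210 cases (18.6%, 13.6 to 24.5%), close to the 18.2% of protein-coding promoter summits and with an interval that includes the 15.4% of summits outside promoters. Merged within 500 bp, the 210 summits formed 196 sites, so a few sites count more than once. lncRNA:CR44605 and lncRNA:CR46352 had 3 summits each, and 14 further genes had 2. By chromosome, 56 lay on 3L, 50 on 3R, 39 on 2L, 37 on 2R, 27 on X and 1 on 4. The X held 12.9% of the set (8.65 to 18.2%) and 18.2% of the whole list.

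Of 11 short words searched on both strands, 3 were set apart before the counts were made. They were CAGTGTA, the closely related word CAGTGCA, and also CACTGAG, which contains the same 5 letters when it is read on the other strand. These 3 had the highest ratio of their share at these summits to their share in the flanks. How the words were chosen is not given here, so this rank is no independent support for them. CAGTGTA or CAGTGCA occurred within 100 bp of 49 of the 210 summits (23.3%, 17.8 to 29.6%) and in 2.86% of 420 flanking windows of the same length, centred 500 bp to each side. At protein-coding promoter summits the share was 10.8% (9.31 to 12.5%), with 4.65% in their flanks. At summits outside promoters it was 19.1% (18.0 to 20.4%), with 4.93% in their flanks, so the flank share was lowest for the members. The interval of the set lies above that of protein-coding promoters and overlaps that of summits outside promoters. Around all 3008 non-coding starts away from protein-coding starts, bound or not, 5.68% of windows of the same length held either word.

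CAGTGTA alone was found at 12.4% of members and in 0.714% of flanks, CAGTGCA at 13.3% and 2.14%, and CACTGAG, which can overlap them, at 8.10% and 0.714%. There were 11 members with both CACTGAG and a CAGTG word, and 55 (26.2%) with either. AGATAA, the core bound by GATA factors, was at 15.2% of members and 8.57% of flanks, and TATAAA at 32.9% and 23.3%. Protein-coding promoter summits held these 2 words in 13.5% and 34.0% of cases, and summits outside promoters in 14.3% and 35.4%. The GAGA word GAGAGAG, at 4.29% and 4.52%, was no more frequent than in the flanks, whereas 8.78% of protein-coding promoter summits held it. TATCGAT (1.43% and 1.90%), CAGGTAG (1.43% and 1.67%), TGAGTCA (1.43% and 0.952%), CACGTG (2.38% and 2.86%) and AGGTCA (2.38% and 5.0%) were rare in both. A word found is a description of the letters and not a binding site.

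The CAGTG words lay to one side of the summit. Within 200 bp, 85 of 102 matches (83.3%, 74.7 to 90.0%) lay ahead of the summit when read along the word, by a median of 74.5 bp over all matches, and the share was 80.7% (78.7 to 82.6%) at summits outside promoters and 69.9% (64.6 to 74.8%) at protein-coding promoters. The interval of the members slightly overlaps that of the protein-coding promoters. The words did not follow the gene as closely, with 61 of 102 (59.8%, 49.6 to 69.4%) on the strand of the non-coding gene. Members outside protein-coding genes held a word in 39 of 146 cases (26.7%) and intronic members in 10 of 61 (16.4%), with overlapping intervals. The median signal with a word was 292 and without it 289, and 5 of the 20 strongest members held one. The GC content of the 200 bp windows had a median of 35.3%, against 36.0% at protein-coding promoters.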

How the data were processed

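Peak lists from ChIP-seq of CG8216-eGFP prepupae (2 biological replicates, 1 group) were used on dm6. Per the deposited file list, 1 relaxed list was called for each replicate against a control alignment, another for both replicates pooled, and the reproducible list was thresholded on the irreproducible discovery rate (IDR). Which aligner, peak caller and IDR threshold were used is not given in the sources used here. Peak signal is the value deposited by the authors in each list, of unstated scaling. Read depth is unknown, and the lists on dm3 and the control libraries were not analysed here.

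Genes came from Ensembl release 115 (annotation 6.54) and sequences from the RefSeq dm6 genome, with 1-based positions. The 6 chromosome arms X, 2L, 2R, 3L, 3R and 4 were used. There were 481 unnamed entries of 18 to 29 bases inside microRNA genes, which were not counted as genes. Gene classes follow biotype and symbol prefix. Summits matched between lists within 100 bp. Words were counted on both strands in 200 bp windows. Intervals are 95% exact (Clopper-Pearson for shares, Poisson for densities). The member rule, matching and word counts were tested on simulated data. Python 3.11.15, pandas 2.3.3, NumPy 2.4.6, SciPy 1.17.1 and matplotlib 3.10.9 were used.

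The members and gene lists were chosen with earlier results of these data known. Named are the 20 strongest and 5 weakest members, members at small RNA genes and pseudogenes, members with a symbol of their own, the listed genes, members found in 1 replicate and, chosen after their values were seen, lncRNA:flam, the host genes of microRNAs, some other antisense RNA genes and the genes at the distance limit.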

Additional observations from a re-analysis of the deposited data

How the results depend on the processing

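Windows of 250 bp gave 123 members and of 1000 bp 313, a peak interval covering the start gave 96, the 2972 strongest peaks of the list 111, and the whole pooled relaxed list 872. The share of the list was 2.07%, 5.27% and 1.62% under the first 3, and the share of non-coding genes reached 3.45%, 8.32% and 2.61%, with 3.25% for the 2972 strongest. The median signal was 308 with 250 bp and 481 in the 2972 strongest. The ratio to protein-coding promoters was 0.997, 0.970, 1.01 and 0.880 in these 4 settings and 0.912 with 1 summit per chain, so it passed 1 only where the interval covered the start. The upstream share rose to 65.9% with 250 bp and 66.7% with the interval, and was 50.5% with 1000 bp. Both replicates held 79.5% of members when matched within 50 bp and 98.6% within 200 bp. CAGTGTA or CAGTGCA was found in 9.05% within 50 bp and 34.3% within 150 bp.

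From 1 replicate alone, as many strongest peaks gave 197 to 214 members, 3.31 to 3.60% of the list, medians of 135 to 153 on the replicates' own scale, ratios of 0.913 to 0.922, 91.6 to 95.4% found in both replicates, 30.5 to 30.8% in introns, 56.5 to 57.4% upstream, 21.3 to 23.8% with the words and 5.45 to 5.86% of genes. Of 86 alternative values, 58 stayed within the main value's interval, within 1.5 times its count or within the spread between replicates, and 28 did not. Counting the unnamed short entries as genes, chosen after seeing the data, left all 210 members in place. No paired analysis was possible because there is 1 group. Without read counts, depth limits for weak sites cannot be given.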
